A study of Mus musculus with 8 samples.

Results

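The 5 genes described here carry the creatine system: Ckb, Ckmt1, Slc6a8, Gatm and Gamt. They were taken by their symbols from the 32285 genes listed in the single-cell RNA sequencing data of mouse colon cultures and tissue, and raw counts of unique molecular identifiers (UMIs), each standing for 1 captured transcript, were read in all 8 libraries. The set was chosen by pathway with earlier results of these data known, and it was selected on the level of Ckb in organoids against tissue among them. Therefore the organoid against tissue values below are a description with no test, as is Ckb in the comparisons of assembloids with organoids or tissue.

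The libraries came from C57BL/6 mice and fell into 4 groups of 2 biological replicates: epithelium of colon tissue, epithelium of colon organoids, epithelium of assembloids, and the stromal cells of assembloids. The labels name no altered allele in any group. Organoids are crypt cells grown in Matrigel, here in full medium with Wnt surrogate, the GSK3 inhibitor CHIR-99021, R-spondin 1 and noggin. Assembloids were organoids embedded again together with primary colon stromal cells that had been expanded in flasks, and they were kept without those 4 factors. Tissue epithelium was shaken from the colon with EDTA. Single cells were freed from assembloids with Liberase TL, DNase I and then TrypLE, from organoids with TrypLE, and from the tissue crypts with TrypLE. The culture medium, the presence of stroma, the mechanical set-up and the dissociation therefore changed together between groups and cannot be told apart.

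Creatine serves cells as an energy buffer. Gatm, the mitochondrial arginine:glycine amidinotransferase, makes guanidinoacetate, and Gamt, guanidinoacetate N-methyltransferase, methylates it to creatine with S-adenosylmethionine. Slc6a8 is the sodium- and chloride-coupled transporter that imports creatine from outside the cell. Creatine kinases then move phosphate between ATP and creatine. Ckmt1, the ubiquitous mitochondrial isoform, works next to ATP export in the space between the mitochondrial membranes, and Ckb, the brain-type cytosolic isoform, works near enzymes and pumps that use ATP. In the gut both isoforms are known from the epithelium, where the pair is thought of as a shuttle between mitochondria and the brush border and junctions.

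In GENCODE M21 (GRCm38), Ckb (ENSMUSG00000001270) lies at chr12:111669361-111672338 on the minus strand, Ckmt1 (ENSMUSG00000000308) at chr2:121357714-121363737 on the plus strand, Slc6a8 (ENSMUSG00000019558) at chrX:73673150-73682502 on the plus strand, Gatm (ENSMUSG00000027199) at chr2:122594467-122611303 on the minus strand and Gamt (ENSMUSG00000020150) at chr10:80258151-80261012 on the minus strand. Ckmt1 shared 10 bases with the gene Strc on the opposite strand, and no other member overlapped an annotated gene. The windows from 250 bases before to 50 bases after the RefSeq starts (GRCm38.p6) were searched on both strands for TATAAA, the sequence of the TATA box, and for CCAAT, a common element near start sites. They were also searched for ACGTG, the core of hypoxia response elements, and for CTTTGA, the core of sites of the Wnt effectors TCF and LEF. A window was found for 4 of the 5 members. The 250 bases before the starts of the creatine kinases, whose levels moved in opposite directions between tissue and cultures, are printed here with motif matches in capitals, Ckb from chr12:111672339-111672588 (minus strand) and Ckmt1 from chr2:121357526-121357775 (plus strand, the first of its 2 starts).
Ckb: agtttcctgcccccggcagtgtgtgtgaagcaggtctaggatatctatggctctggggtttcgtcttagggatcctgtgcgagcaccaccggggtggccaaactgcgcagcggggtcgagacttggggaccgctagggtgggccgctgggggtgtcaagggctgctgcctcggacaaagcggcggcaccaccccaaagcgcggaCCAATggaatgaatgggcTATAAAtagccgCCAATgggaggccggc
Ckmt1: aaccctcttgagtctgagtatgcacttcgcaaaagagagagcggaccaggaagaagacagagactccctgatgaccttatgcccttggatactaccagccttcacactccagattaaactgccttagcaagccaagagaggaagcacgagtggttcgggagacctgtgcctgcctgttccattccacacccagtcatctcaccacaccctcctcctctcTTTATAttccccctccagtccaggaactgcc
The Ckb window held TATAAA at base -28 and CCAAT at bases -46 and -16 from the start. TATAAA was present in 13.6% and CCAAT in 37.4% of the 32851 promoter windows. The first Ckmt1 window held TATAAA once, on the opposite strand at base -31, where the printed strand reads TTTATA. Neither window held ACGTG, found in 19.6% of all windows, or CTTTGA, found in 16%. GC content was 63% with 22 CpG dinucleotides in the Ckb window and 52% with 4 in the first Ckmt1 window. The window of the second Ckmt1 start held 1 match, CCAAT at base -242 on the opposite strand, with 58.3% GC and 10 CpG dinucleotides. The window of Gatm held CCAAT at base -190 on the opposite strand and at -55, and ACGTG at -94, and that of Gamt held none of the 4 motifs. A match of letters is no evidence that a factor binds there.

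Between 5984 and 32932 barcodes were listed per library, with 99133978 to 191255856 UMIs in all. Barcodes were kept from 500 detected genes upward and up to a mitochondrial share of 10%. In epithelial libraries, cells were further required to carry epithelial markers and not those of stroma, macrophages or squamous cells, which left 4264 to 25388 cells and 36873782 to 187468118 UMIs per library. In tissue the share of barcodes that passed the cell filter was low, at 38.7% and 25.4%, against 55.1% to 96.1% in the other libraries. At most 0.98% of a library's barcodes were shared with another. Before this marker gate, the 7 epithelial genes summed to 5818 to 11249 CPM (UMIs of a gene per 1000000 UMIs of the library) in the epithelial libraries and to 474 and 103 CPM in the stromal libraries. The 7 fibroblast genes summed to 10296 and 14591 CPM in the stroma, to 0.0850 and 0.0541 CPM in tissue epithelium, with 5 of the 7 at 0 in each library, to 0.0267 and 0.0753 CPM in organoids and to 770 and 898 CPM in assembloid epithelium. In the assembloid epithelial cells left by the gate they still summed to 178 and 34.1 CPM, so some stromal RNA was present there. Sums over a library cannot tell fewer cells of a type from less RNA per cell.

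The epithelial cells of colon tissue held much mitochondrial and almost no cytosolic creatine kinase mRNA, whereas those of both cultures held both. Ckb was at 3.31 and 5.86 CPM in the tissue libraries, at 131 and 157 CPM in assembloids and at 91.3 and 91.4 CPM in organoids. These levels rested on 155 and 216 Ckb UMIs in tissue, 20791 and 16779 in assembloids and 17124 and 8256 in organoids. No culture library came near a tissue library. By mean level, 4.58 ± 1.80 CPM (SD, n = 2), Ckb ranked 10362 among 22303 genes with a UMI in tissue, and 867 among 24718 in assembloids at 144 ± 18.7 CPM. In organoids it ranked 1717 among 23351.

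Ckmt1 showed the opposite order. It was at 1388 and 1470 CPM in tissue, 305 and 400 CPM in assembloids and 182 and 181 CPM in organoids. The 3 groups did not overlap. In tissue Ckmt1 was among the most abundant mRNAs of the epithelium, at rank 111, and it ranked 333 in assembloids and 768 in organoids. Slc6a8, which brings creatine in, followed the order of Ckmt1, with 108 and 114 CPM in tissue, 24.9 and 30.4 CPM in assembloids and 6.33 and 8.65 CPM in organoids.

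The genes of creatine synthesis were low in the epithelium of every group. Gatm was at 11.6 and 7.84 CPM in tissue, 3.56 and 3.62 CPM in assembloids and 13.8 and 13.1 CPM in organoids. Assembloids thus lay below the other groups, and the organoid libraries lay above both tissue libraries. Gamt did not exceed 1.77 CPM in any epithelial library, and its 6 values lay between 1.07 and 1.77 CPM, with assembloids overlapping both other groups and the tissue libraries (1.77 and 1.63 CPM) above the organoid libraries (1.39 and 1.07 CPM). At 60 to 260 UMIs a library, small differences in Gamt were not detectable at this depth.

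**Figure D1:**
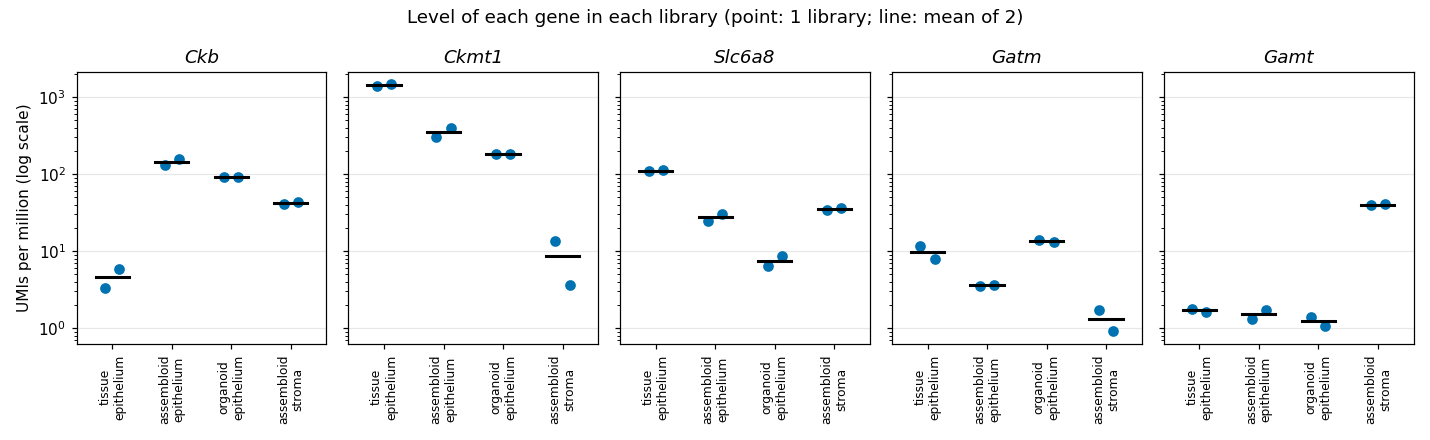
Level of the 5 creatine genes in the 8 libraries (CPM, log scale, 1 panel per gene), with 1 point per library and a line at the mean of the 2 libraries of a group. Ckb sits at 3.31 and 5.86 CPM in tissue against 91.3 to 157 CPM in the 4 culture epithelium libraries, while Ckmt1 and Slc6a8 fall from tissue to assembloids to organoids and Gamt lies at 39.7 and 40.7 CPM in the stromal libraries against at most 1.77 CPM in the others.

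Assembloids were compared with tissue in 1 edgeR quasi-likelihood fit of all 19132 genes over the 6 epithelial libraries. Of the 4 members tested, 3 were lower and 0 higher in assembloids at an adjusted p under 0.05. Calls were common in this comparison, with 50.5% of all genes called, 26.9% higher and 23.6% lower. Ckb was not tested, since its low level in the same tissue libraries was in view when the genes were chosen, and its difference was 5.37 ± 0.33 (SE) on the log2 scale or 41.3-fold. Ckmt1 was 3.10-fold lower in assembloids (log2 difference -1.63 ± 0.26, adjusted p = 0.0014), and Slc6a8 was 3.07-fold lower (-1.62 ± 0.18, adjusted p = 0.00024). Fold changes of the fit include its library scaling (factors 0.818 and 0.945 in assembloids, 1.17 and 1.15 in tissue), and thus differ from ratios of CPM.

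Gatm was 2.05-fold lower in assembloids than in tissue (log2 difference -1.04 ± 0.26, adjusted p = 0.011). This call rested on 1 tissue library: without tissue replicate 1 the difference was -0.76 (adjusted p = 0.12), and after each cell was reduced to 2000 UMIs it was -0.73 (adjusted p = 0.10). Gamt did not pass the test, with a log2 difference of 0.22 ± 0.36 (adjusted p = 0.64).

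Organoids were set against tissue without a test, since this contrast was in view when the genes were chosen. Of all genes 48.2% passed the edgeR test in it. The log2 difference was 4.57 ± 0.32 (SE) for Ckb, -2.73 ± 0.27 for Ckmt1 and -3.67 ± 0.19 for Slc6a8, or 12.7-fold lower for the transporter. It was 0.72 ± 0.25 for Gatm and -0.19 ± 0.37 for Gamt. The contrast uses the same tissue libraries as the previous one, so both sets of values are not independent.

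Organoids were then set against assembloids, with 4 members tested and 3 called (1 higher and 2 lower in organoids), where 53.4% of all genes were called, 24.6% higher and 28.8% lower. Slc6a8 was 4.15-fold lower in organoids (log2 difference -2.05 ± 0.18, edgeR adjusted p = 0.00012) and Ckmt1 2.14-fold lower (-1.10 ± 0.26, adjusted p = 0.0074). Gatm was 3.39-fold higher (1.76 ± 0.26, adjusted p = 0.00096). Gamt did not pass (-0.41 ± 0.36, adjusted p = 0.36). Ckb, not tested here, was at a log2 difference of -0.80 ± 0.28. The colonocyte marker list summed to 5359 and 5696 CPM in tissue, 1520 and 1985 CPM in assembloids and 386 and 306 CPM in organoids, which is the order of Ckmt1 and Slc6a8. The macrophage list was at 70.8 and 34.4 CPM in assembloid epithelium against 3.16 to 7.05 CPM in the other epithelial groups. The glia list summed to 810 and 538 CPM in assembloid epithelium, 105 and 81.2 CPM in tissue and 34.0 and 54.6 CPM in organoids, of which Erbb3 gave 809 and 537, 103 and 79.8, and 32.8 and 53.2 CPM, and the 7 other genes of the list summed to at most 2.39 CPM in any of the 6 libraries. The part of other cell types in the library differences was not tested in these sums. Levels within epithelial classes are given below.

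**Figure D2:**
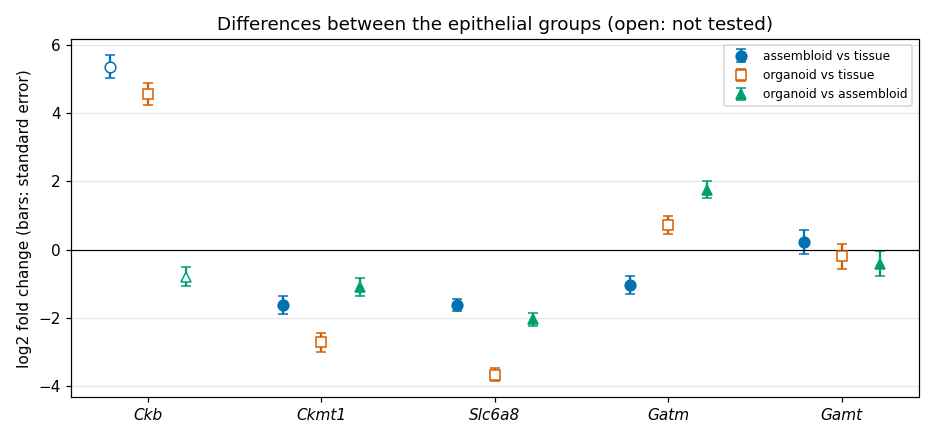
Log2 fold change with its standard error for the 5 creatine genes in the 3 comparisons between epithelial groups, from the edgeR fit over 6 libraries, with open symbols where no test was made. Ckb lies at 5.37 in assembloids and 4.57 in organoids against tissue, Ckmt1 and Slc6a8 lie below 0 in all 3 comparisons, and Gamt lies within 0.41 of 0.

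The makeup of the kinase pool followed from these levels. Of all UMIs of Ckb, Ckmt1, Ckmt2 and Ckm, Ckb gave 0.237% (exact binomial 95% interval 0.201% to 0.277%) and 0.395% (0.344% to 0.451%) in the tissue libraries. It gave 29.8% and 28.2% in assembloids and 33.4% and 33.6% in organoids. In the assembloid stroma Ckb was the major isoform, with 74.9% and 92.3%. Intervals cover counting error only.

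Single cells gave the same order as the summed counts. Since depth differed between libraries, each cell was reduced to 2000 UMIs at random, and shallower cells were left out (89 to 5855 per epithelial library, among them 2144 and 1502 in tissue). A Ckb UMI was then found in 0.453% and 1.30% of tissue cells, 22.5% and 24% of assembloid cells and 16.4% and 14.8% of organoid cells. For Ckmt1 the shares were 70.9% and 76.6% in tissue, 43.8% and 49.0% in assembloids and 30.2% and 28.2% in organoids. A Slc6a8 UMI was found in 17.1% and 17.7%, 4.87% and 6.14%, and 1.24% and 2.00% of the cells, respectively. Without the reduction the mean share for Ckb was 3.06% in tissue, 52.6% in assembloids and 62.1% in organoids, and for Ckmt1 80.9%, 73.7% and 77.9%. At unequal depth the groups thus hardly differed in the share for Ckmt1.

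Free RNA can give UMIs in cells that do not express a gene. In fibroblast-like cells caught in the assembloid epithelial libraries, 7.30% and 5.76% of cells held a Ckmt1 UMI at 2000 UMIs per cell, against 0.236% and 0.0701% of fibroblast-like cells in the stromal libraries. The epithelial shares for Ckmt1 in the same assembloid libraries, 43.8% and 49.0%, were above those of the fibroblast-like cells there. Cells that passed the epithelial gate were kept out of this fibroblast-like class, so its shares can understate the background. For Ckb the shares lay closer together: 16.1% and 19.6% of these fibroblast-like cells and 20.3% and 25.5% of the macrophage-like cells held a Ckb UMI, against 22.5% and 24% of the epithelial cells, and fibroblast-like cells of the stromal libraries held one in 7.29% and 7.24%. How much free RNA gave of the Ckb UMIs in assembloid epithelial cells was not tested. Both kinases were found together in 10.5% and 12.6% of assembloid cells and 5.13% and 3.89% of organoid cells, but in 0.165% and 0.652% of tissue cells, and in 1.24% and 0.384% of the fibroblast-like cells of the assembloid epithelial libraries.

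**Figure D3:**
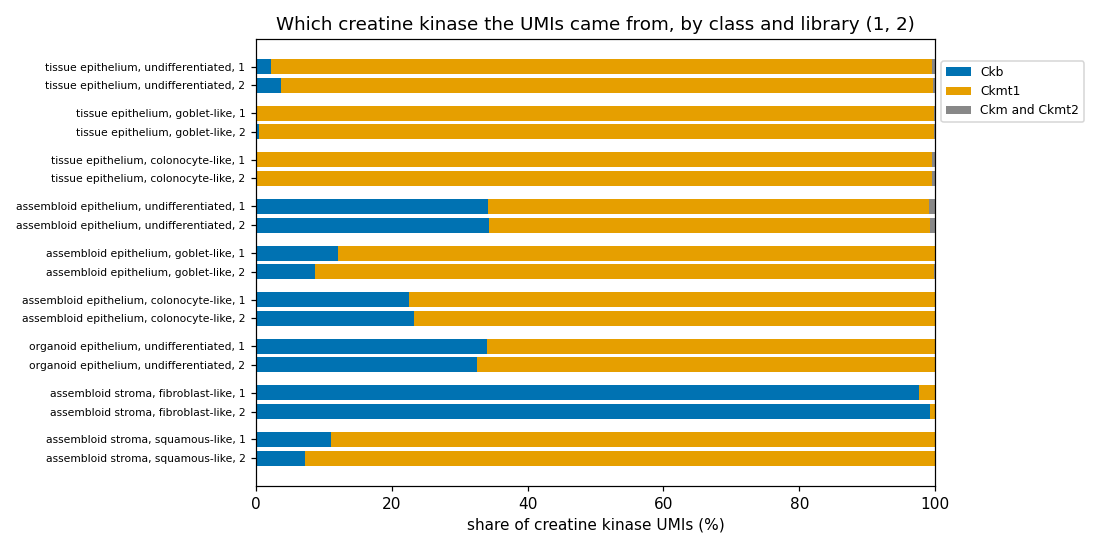
Stacked bars of the share of creatine kinase UMIs (percent) from Ckb, from Ckmt1 and from Ckm and Ckmt2 together, 1 bar per library and gated cell class. Ckb takes 2.24% and 3.63% of the undifferentiated cells' UMIs in tissue against 34.2% and 34.3% in assembloids, and 97.7% and 99.3% in fibroblast-like stromal cells.

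To ask where in the epithelium the genes were expressed, cells were gated by marker genes into colonocyte-like, goblet-like, enteroendocrine-like and undifferentiated (stem-like or cycling) classes, and UMIs were summed per class and library. No member was used in a gate. Fold changes of all class fits below include a scaling of each class sum, and thus differ from ratios of CPM. Many epithelial cells passed no gate (59.2% and 49.0% in tissue, 86.3% and 76.3% in assembloids), and gate levels were set after the data were seen. Colonocyte-like cells made up 15.0% and 26.1% of tissue cells and 3.88% and 8.95% of assembloid cells. Only 10 and 2 such cells were found in organoids, so that differentiated classes of organoids could not be compared.

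In tissue the transporter and the mitochondrial kinase were highest in colonocyte-like cells, the absorptive cells of the surface. Ckmt1 was at 3295 and 2886 CPM there against 348 and 375 CPM in undifferentiated cells, a 13.4-fold difference (log2 3.74 ± 0.16, edgeR adjusted p = 2.3e-13). Slc6a8 was at 308 and 240 CPM against 27.7 and 38.7 CPM, or 13.3-fold higher (3.73 ± 0.17, adjusted p = 4.2e-13). Both colonocyte-like values lay above both undifferentiated values for either gene. In colonocyte-like cells, 98.6% and 94.8% of cells held a Ckmt1 UMI at 2000 UMIs per cell.

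Ckb went the other way along this axis of tissue. It was at 1.07 and 3.19 CPM in colonocyte-like cells, from 13 and 40 UMIs, and at 8.03 and 14.2 CPM in undifferentiated cells, which is 3.40-fold lower in colonocytes (log2 -1.77 ± 0.32, adjusted p = 8.0e-05). The low tissue level of Ckb was in view when the genes were chosen. Its p-values between tissue classes, here and below, are therefore not independent of that choice, and its calls enter the counts of members. At 2000 UMIs per cell, 0 of 588 colonocyte-like cells of tissue replicate 1 held a Ckb UMI, which allows a share of up to 0.510% by a limit of 3 counts (0.625% as the upper end of the exact 95% interval), and 4 of 834 cells of replicate 2 did (0.480%). Gatm was lower in colonocyte-like cells as well, at 1.98 and 2.07 CPM against 19.7 and 18.7 CPM (log2 -2.56 ± 0.24, adjusted p = 1.7e-08). Gamt was at 1.98 and 2.23 CPM against 1.20 and 0.967 CPM, from 7 and 3 UMIs in undifferentiated cells, and passed with edgeR (1.56 ± 0.52, adjusted p = 0.013) but not with DESeq2 (adjusted p = 0.081). In all, 5 of 5 members were called in this comparison, where 63.5% of all genes were. After cells were reduced to 2000 UMIs, Ckb, Ckmt1 and Slc6a8 still passed, Gatm did not (-1.51, adjusted p = 0.083), and Gamt was too low to be tested.

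Goblet-like cells, which secrete mucin, held an intermediate amount of the mitochondrial kinase in tissue. Ckmt1 was at 618 and 653 CPM, 2.43-fold above undifferentiated cells (log2 1.28 ± 0.15, adjusted p = 6.0e-07). Ckb was at 0.831 and 2.77 CPM (-2.20 ± 0.35, adjusted p = 3.8e-05) and Gatm at 5.51 and 4.22 CPM (-1.50 ± 0.22, adjusted p = 1.5e-05). Slc6a8, at 33.0 and 40.7 CPM, passed with edgeR (0.65 ± 0.18, adjusted p = 0.0056) but not with DESeq2 (adjusted p = 0.056). In undifferentiated cells it was at 27.7 and 38.7 CPM, so the values of both classes overlapped before scaling. Thus 4 of 5 members were called against a background of 44.7%, Ckb among them with the limit given above. At 2000 UMIs per cell only Ckmt1 of the 4 passed, with adjusted p of 0.098 for Ckb, 0.16 for Slc6a8 and 0.22 for Gatm.

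Enteroendocrine-like cells, the hormone-producing cells, were the tissue class with the most Ckb among those tested. Ckb was at 44.7 and 45.6 CPM, from 21 and 28 UMIs in 45 and 86 cells, 3.78-fold above undifferentiated cells (log2 1.92 ± 0.35, adjusted p = 0.00018). Gatm was at 57.5 and 42.4 CPM (1.31 ± 0.27, adjusted p = 0.00060). Ckmt1 was lower, at 119 and 222 CPM (-1.13 ± 0.19, adjusted p = 6.7e-05). Of the 5 members 3 were called, with a background of 39.2%, and the same limit holds for Ckb. At 2000 UMIs per cell Ckmt1 passed, and Ckb (1.59, adjusted p = 0.12) and Gatm (1.41, adjusted p = 0.24) did not. Within the undifferentiated cells of tissue, Gatm was higher in cycling than in stem-like cells, at 29.0 and 27.8 CPM against 12.4 and 13.3 CPM (1.29 ± 0.26, adjusted p = 0.0015). It was the only member of 5 called, where 12.4% of genes were, and its adjusted p was 0.099 with a stricter gate and 0.66 at 2000 UMIs per cell.

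**Figure D4:**
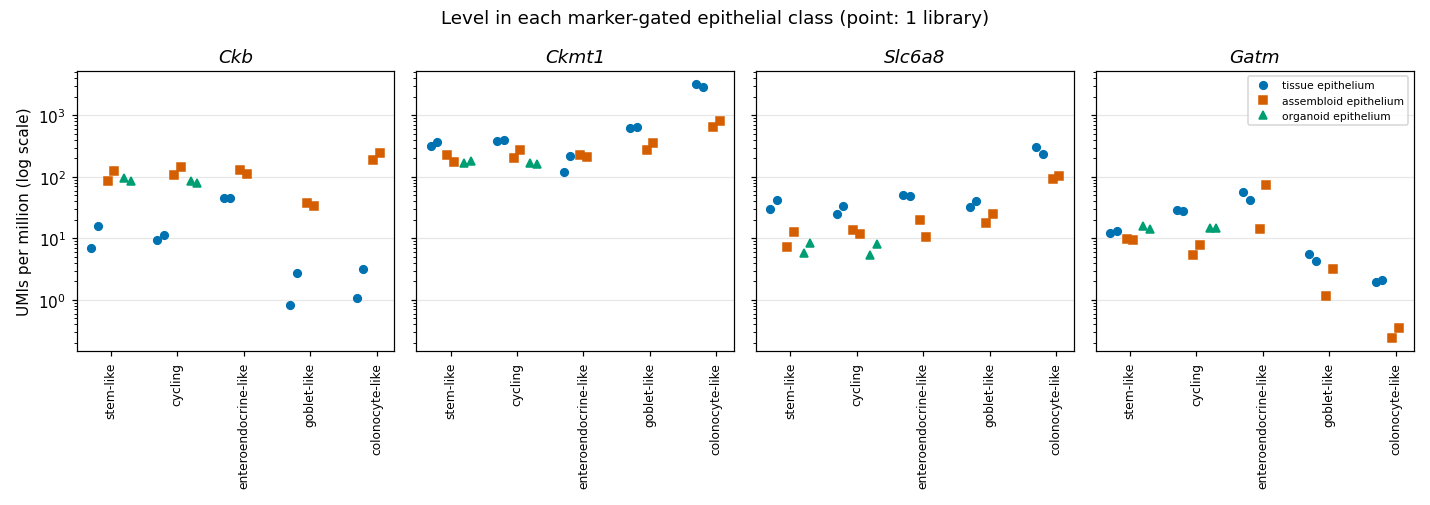
Level of Ckb, Ckmt1, Slc6a8 and Gatm (CPM, log scale, shared axis) in gated epithelial classes of tissue, assembloids and organoids, 1 point per library and class with at least 20 cells. Ckb is lowest in colonocyte-like and goblet-like cells of tissue (0.831 to 3.19 CPM) but highest in colonocyte-like cells of assembloids (186 and 245 CPM), while Ckmt1 and Slc6a8 are highest in colonocyte-like cells of both.

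In assembloids Ckmt1 and Slc6a8 again rose in colonocyte-like cells, and here Ckb rose with them. Ckb was at 186 and 245 CPM in colonocyte-like cells against 108 and 142 CPM in undifferentiated cells (log2 1.39 ± 0.15, adjusted p = 8.8e-05). Ckmt1 was at 639 and 808 CPM against 205 and 269 CPM (2.21 ± 0.16, adjusted p = 1.0e-05), and Slc6a8 at 91.0 and 102 CPM against 13.5 and 11.8 CPM (3.51 ± 0.19, adjusted p = 3.5e-06). Gatm was again lower, at 0.238 and 0.353 CPM from 2 and 4 UMIs, against 5.56 and 7.93 CPM (-3.92 ± 0.71, adjusted p = 0.0017). In all 4 of 5 members were called, with a background of 48.6%, and Gatm was too low to be tested at 2000 UMIs per cell. A Ckb UMI was found in 27.7% and 34.7% of the colonocyte-like cells at 2000 UMIs per cell, and both kinases together in 19.1% and 26.6%.

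Goblet-like cells of assembloids held less Ckb than undifferentiated cells (37.1 and 33.6 CPM, log2 -1.40 ± 0.17, adjusted p = 0.00039), as goblet-like cells of tissue did, and more Ckmt1 (270 and 357 CPM, 0.84 ± 0.16, adjusted p = 0.0035) and Slc6a8 (18.0 and 24.9 CPM, 1.23 ± 0.22, adjusted p = 0.0026). That is 3 of 5 members, with a background of 33.1%. At 2000 UMIs per cell the adjusted p for Slc6a8 was 0.071. In enteroendocrine-like cells only Gatm of the 5 was called (2.50 ± 0.53, adjusted p = 0.014, background 18.5%), and its libraries lay far apart at 14.3 and 73.1 CPM. Between cycling and stem-like cells 0 of 5 members passed in assembloids (background 9.6%), with unadjusted p of 0.015 for Ckb and 0.011 for Ckmt1, and 0 of 5 in organoids (background 26.1%).

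The class differences were also compared between assembloids and tissue directly, by the interaction in an edgeR fit over both groups, a test added after the data had been seen. Ckb was again not tested, since this comparison sets its tissue counts against those of a culture, and its values are a description. For colonocyte-like against undifferentiated cells, 1 of 4 members tested differed, where 22.7% of all genes did. The step for Ckb was 3.08 ± 0.35 higher on the log2 scale in assembloids and stayed between 2.78 and 3.52 when each library was left out in turn. As log2 ratios of CPM, the Ckb steps were -2.90 and -2.15 in the tissue libraries and 0.79 and 0.78 in the assembloid libraries. For Ckmt1 the step from undifferentiated to colonocyte-like cells was smaller in assembloids by a log2 value of -1.60 ± 0.26 (adjusted p = 0.00036). For Slc6a8 no difference in the step was shown (-0.30 ± 0.27, adjusted p = 0.50). For enteroendocrine-like cells the Ckb step differed by -2.22 ± 0.41, and 0 of 4 members passed the edgeR test (background 8.22%, unadjusted p = 0.020 for Ckmt1). For goblet-like cells 0 of 4 members passed it (background 10.4%, lowest unadjusted p = 0.079, for Ckmt1).

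Levels were also read within undifferentiated cells. This class joined stem-like and cycling cells in unlike proportions, with 231 and 171 stem-like and 127 and 68 cycling cells in tissue, 35 and 47 against 2004 and 620 in assembloids, and 1049 and 1601 against 1536 and 1363 in organoids. Among undifferentiated cells, Ckb was at 8.03 and 14.2 CPM in tissue, 108 and 142 CPM in assembloids and 88.1 and 82.8 CPM in organoids. Ckmt1 was at 348 and 375, 205 and 269, and 171 and 172 CPM, and Slc6a8 at 27.7 and 38.7, 13.5 and 11.8, and 5.55 and 8.37 CPM. Gatm in these cells was at 19.7 and 18.7 CPM in tissue, 5.56 and 7.93 CPM in assembloids and 15.1 and 14.5 CPM in organoids, but its order rested on the cycling cells: in those it was at 29.0 and 27.8 CPM in tissue and 14.6 and 14.8 CPM in organoids, and in stem-like cells at 12.4 and 13.3 CPM in tissue and 16.0 and 14.1 CPM in organoids. For Ckb, Ckmt1 and Slc6a8 tissue lay apart from both cultures in stem-like and in cycling cells alike. How many of all genes do so was not counted, and the set was selected on Ckb in organoids against tissue. Assembloids and organoids overlapped in stem-like cells, with 35 and 47 cells and 3 and 8 Slc6a8 UMIs in assembloids. In cycling cells assembloids lay above organoids for these genes. Ckb was at 108 and 144 against 84.6 and 80.2 CPM there. Ckmt1 was at 204 and 274 against 172 and 161 CPM, and Slc6a8 at 13.7 and 11.7 against 5.41 and 8.22 CPM. Ckb gave 2.24% and 3.63% of creatine kinase UMIs in undifferentiated tissue cells, against 34.2% and 34.3% in those of assembloids. For colonocyte-like cells it was 0.0324% and 0.110% in tissue and 22.6% and 23.2% in assembloids.

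The assembloid stroma held Ckb, Slc6a8 and Gamt but little Ckmt1 or Gatm. These libraries were made with another Cell Ranger release (6.0.1 in the file headers, against 7.1.0 for the epithelial libraries), so that stroma and epithelium are given side by side without a test, and the release and the group cannot be told apart. Ckb was at 40.5 and 44.0 CPM, Slc6a8 at 34.2 and 36.5 CPM and Gamt at 39.7 and 40.7 CPM. Gamt was thus above every epithelial library, though the same kind of cell differed in Gamt with the library it came from: fibroblast-like cells held it at 43.3 and 37.9 CPM in the stromal libraries and at 6.07 and 7.98 CPM in the assembloid epithelial libraries, and epithelial cells of the stromal libraries at 5.80 and 5.58 CPM. The part of the library in the Gamt levels was not tested. Gatm, the step before it, was at 1.72 and 0.909 CPM. Ckmt1 was at 13.6 and 3.65 CPM, and the libraries differed most in it. Squamous markers were at 1695 and 107 CPM in the same 2 libraries.

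Fibroblast-like cells made up most of the stroma, with 7662 and 8575 cells. They held Ckb at 39.6 and 35.6 CPM, Gamt at 43.3 and 37.9 CPM and Slc6a8 at 37.1 and 37.3 CPM, and almost no Ckmt1 (0.940 and 0.267 CPM) or Gatm (1.27 and 0.487 CPM). Among them, cells with trophocyte markers such as Cd34 and Grem1 held Slc6a8 at 54.3 and 54.3 CPM. Those with telocyte markers held it at 31.2 and 22.8 CPM and cycling ones at 30.5 and 33.1 CPM. Gatm was at 1.13 and 0.238 CPM with trophocyte markers, 5.86 and 5.70 CPM with telocyte markers and 1.90 and 0.684 CPM in cycling cells. These Gatm levels rested on few UMIs, 13 and 4, 6 and 10, and 74 and 20, with 60 and 94 cells in the telocyte-like subclass. These subclasses were not tested. Each further class was compared with fibroblast-like cells within the libraries.

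Cells with glia or neuron markers held the most Ckb and Gamt of the 7 stromal classes compared. In cells with both glia and neuron markers (58 and 62 cells) Ckb was at 340 and 477 CPM (log2 3.36 ± 0.25 above fibroblast-like cells, edgeR adjusted p = 9.7e-08) and Gamt at 327 and 371 CPM (3.06 ± 0.22, adjusted p = 6.2e-08). In glia-like cells (31 and 23 cells) Ckb was at 213 and 381 CPM (2.81 ± 0.27, adjusted p = 3.0e-06) and Gamt at 250 and 326 CPM (2.70 ± 0.24, adjusted p = 1.3e-06). Neuron-like cells (69 and 107 cells) held Ckb at 190 and 294 CPM (2.49 ± 0.24, adjusted p = 1.3e-06) and Gamt at 128 and 177 CPM (1.75 ± 0.21, adjusted p = 1.1e-05). The counts were 3 of 4 members, 3 of 4 and 4 of 5, all higher than in fibroblast-like cells. Ckmt1 was left out of the count in the classes where it had no UMI, while the shares over all genes given next keep such genes. Of all genes 24.6%, 12.2% and 37% were called in these comparisons, and 13.1%, 6.99% and 18.6% were called higher. Fibroblast markers were also present in part of these cells, with a median of 71.7 and 83.6 UMIs per 10000 in the combined class and 89.2 and 68.9 in glia-like cells, against 15.9 and 14.7 in neuron-like and 109 and 140 in fibroblast-like cells. Doublets were not called, and their part in these levels was not tested. Gatm was among the members called in each class, though from few UMIs, as in glia-like cells with 8 and 2, and it could not be tested at 2000 UMIs per cell. In fibroblast-like cells Gatm was at 1.27 and 0.487 CPM and Ckmt1 at 0.940 and 0.267 CPM. Both genes passed the filter on low counts only through other classes, where they were higher. Their calls as higher than in fibroblast-like cells are therefore not independent of the filter.

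Ckmt1 in neuron-like cells was at 12.2 and 14.4 CPM (4.34 ± 0.68, adjusted p = 0.00026). It rested on 14 and 20 UMIs and did not pass after cells were reduced to 2000 UMIs (adjusted p = 0.18). In the combined and the glia-like class Ckmt1 had 0 UMIs in both libraries, so no fold change or test result is given for it there.

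Endothelial-like cells held more Gatm (11.9 and 16.3 CPM, log2 4.32 ± 0.59, adjusted p = 7.7e-05) and less Slc6a8 (14.3 and 13.7 CPM, -1.50 ± 0.36, adjusted p = 0.0068) than fibroblast-like cells, with 2 of 5 members called and a background of 25.3%. Their Gatm rested on 5 and 25 UMIs and could not be tested at 2000 UMIs per cell, where the adjusted p for Slc6a8 was 0.055. Myofibroblast-like cells, the contractile cells, held more Ckb at 94.4 and 113 CPM (1.36 ± 0.23, adjusted p = 0.0078), the only member of 5 called where 1.3% of genes were. Without library as a block the adjusted p was 0.063. In squamous-like cells (879 and 38 cells) Ckmt1 was higher than in fibroblast-like cells, at 63.4 and 54.6 CPM (6.80 ± 0.44, adjusted p = 1.6e-07), and Ckb at 7.82 and 4.20 CPM (-2.11 ± 0.27, adjusted p = 1.7e-05) and Gamt at 9.47 and 4.20 CPM (-2.08 ± 0.24, adjusted p = 6.8e-06) were lower. Here 3 of 5 members were called and 47.5% of all genes. The limit of the low-count filter given above holds for Gatm in endothelial-like and Ckmt1 in squamous-like cells. The few epithelial cells in the stromal libraries (74 and 33 cells) held more Ckmt1, at 209 and 306 CPM. Their Ckb was at 169 and 290 CPM, and they were not among the stromal classes compared.

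**Figure D5:**
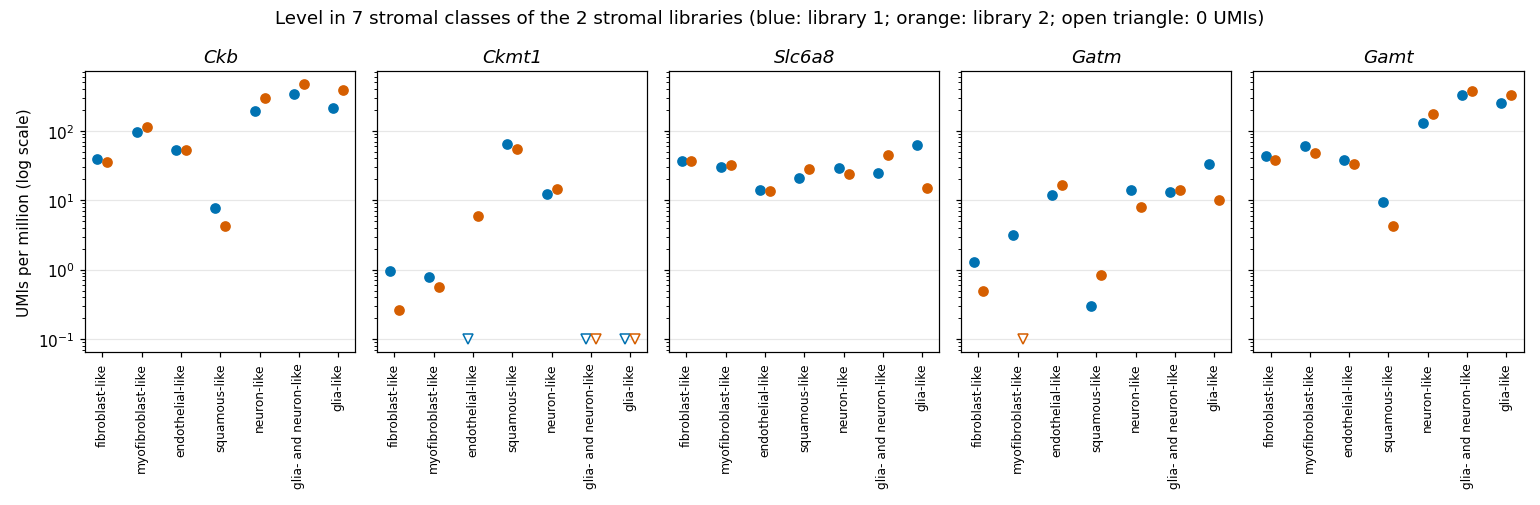
Level of the 5 creatine genes (CPM, log scale) in 7 gated stromal classes of the 2 assembloid stroma libraries, 1 point per library, with open triangles where no UMI was found. Among the 7 classes plotted, Ckb and Gamt are highest in cells with glia and neuron markers (340 and 477 CPM, and 327 and 371 CPM), and Ckmt1 in squamous-like cells (63.4 and 54.6 CPM).

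The rest of the creatine pathway was low in sums over the epithelial libraries, though not in every class. Ckm, the muscle isoform, was listed at no more than 0.0755 CPM in any epithelial library and was not tested. Ckmt2, the mitochondrial isoform of striated muscle, was at 5.94 and 6.59 CPM in tissue, 1.97 and 0.909 CPM in assembloids and 0.0533 and 0.0554 CPM in organoids (assembloids against tissue -1.68 ± 0.44, adjusted p = 0.013, and organoids against assembloids -4.87 ± 0.55, adjusted p = 0.00033). Slc16a12, a transporter that lets creatine out of cells, was at 8.18 and 6.75 CPM in tissue and at 0.214 and 0.365 CPM in assembloids (-4.32 ± 0.37, adjusted p = 7.7e-05). Within tissue the pair lay in different classes: Ckmt2 was at 17.0 and 14.5 CPM in colonocyte-like and 1.54 and 1.29 CPM in undifferentiated cells, and Slc16a12 at 1.65 and 1.99 CPM and 29.9 and 27.4 CPM. In assembloids Ckmt2 lay the other way, at 0 and 0.264 CPM in colonocyte-like and 2.61 and 2.80 CPM in undifferentiated cells. In the stroma, neuron-like cells held Slc16a12 at 36.5 and 20.2 CPM, from 42 and 28 UMIs. Fibroblast-like cells there held it at 0.0848 and 0.419 CPM. These class values for Ckmt2 and Slc16a12 were not tested.

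Genes of the metabolism of creatine's precursors, of energy transfer and of the hypoxia response were taken as lists. These lists were also chosen with results of these data known. Of 9 genes of serine and glycine metabolism, 5 were higher and 2 lower in assembloids than in tissue. The median log2 difference was 1.44 against 0.03 over all genes, of which 26.9% were called higher and 23.6% lower. Besides synthesis genes the list held Gldc, Amt and Gcsh, of glycine cleavage, and the glycine transporter Slc6a9. The count is therefore no measure of supply. Psat1 was at 3.74 and 3.72 CPM in tissue, 64.9 and 62.9 CPM in assembloids and 124 and 149 CPM in organoids (assembloids against tissue 4.50 ± 0.22, adjusted p = 1.3e-05). Phgdh, the first enzyme of serine synthesis, was at 6.71 and 11.4, 67.0 and 95.6, and 173 and 143 CPM (3.55 ± 0.34, adjusted p = 0.00013). Organoids exceeded assembloids in 5 of the 9 genes and were below them in 2, where 24.6% of all genes were called higher and 28.8% lower.

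The lists closer to the methyl group and to arginine were mixed. Of 14 genes of the methionine and S-adenosylmethionine cycle tested, 2 were higher and 5 lower in assembloids than in tissue (median -0.36), against the same 26.9% and 23.6% of all genes. Mat2a, which makes S-adenosylmethionine, was at 289 and 305 CPM in tissue, 33.9 and 69.3 CPM in assembloids and 168 and 178 CPM in organoids (-2.16 ± 0.30, adjusted p = 0.00076). Organoids were higher than assembloids in 6 of the 14 and lower in 2, against 24.6% and 28.8%. Of 13 genes of arginine supply and use, 3 were higher and 3 lower in assembloids than in tissue (median -0.07), close to the shares over all genes, among them Oat, an ornithine aminotransferase, at 92.2 and 89.5 CPM in tissue and 22.4 and 31.8 CPM in assembloids (-1.36 ± 0.21, adjusted p = 0.0012).

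Among partners in energy transfer, 5 of 12 other phosphoryl transfer kinases were higher and 3 lower in assembloids than in tissue (median 0.71), where 26.9% of all genes were higher and 23.6% lower. Ak4, a mitochondrial adenylate kinase family member, was at 0.940 and 1.60 CPM in tissue, 57.6 and 63.7 CPM in assembloids and 32.4 and 48.9 CPM in organoids (5.99 ± 0.30, adjusted p = 1.3e-05). Of 9 genes of mitochondrial ATP export, 1 was higher and 1 lower, which is below those shares. The higher one was Slc25a4, an ADP/ATP carrier, at 15.1 and 17.9 CPM in tissue, 52.5 and 64.5 CPM in assembloids and 263 and 152 CPM in organoids (2.22 ± 0.35, adjusted p = 0.0014). Of 11 ion pumps and brush border motors, 1 was higher and 4 lower in assembloids than in tissue (median -0.26), and 1 was higher and 6 lower in organoids than in assembloids (median -0.72), where 24.6% of all genes were higher and 28.8% lower. Myo1a, a brush border motor, was at 111 and 119 CPM in tissue, 45.3 and 55 CPM in assembloids and 13.7 and 14.3 CPM in organoids.

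All 12 genes of the hypoxia response list were higher in assembloids than in tissue, with a median log2 difference of 3.05, where 26.9% of all genes were called higher, and 10 of 12 were lower in organoids than in assembloids (0 higher, median -1.95), where 28.8% of all genes were. Bnip3, a mitochondrial mitophagy receptor, was at 4.64 and 3.61 CPM in tissue, 302 and 267 CPM in assembloids and 78.2 and 85.2 CPM in organoids (assembloids against tissue 6.51 ± 0.30, adjusted p = 1.3e-05). Slc2a1, the glucose transporter GLUT1, was at 55.1 and 65.4, 249 and 281, and 45.4 and 62.3 CPM. Ckb shared with Bnip3 the order assembloids, organoids, tissue, and Slc2a1 did not, since its organoid and tissue levels overlapped. The order of Ckb holds the difference between organoids and tissue on which the set was selected. How many of all genes have this order was not counted, so it is a description, and a link of Ckb to the list was not tested.

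Genes most like each member were listed by Pearson's r of log2(CPM + 1) over 30 sums of a class in an epithelial library. Sums of one library share its cells' handling and depth, so r is given as a description. The sums also pool tissue with both cultures. Values of r for Ckb therefore carry its difference between organoids and tissue, on which the set was selected. For Ckb these were Hspa8 (r = 0.889), Egln1 (0.884), Pgap1 (0.884), Cd47 (0.879) and Bnip3 (0.877). For Ckmt1 they were Ndufb9 (0.959), Ethe1 (0.95), Cox4i1 (0.937), Lypd8 (0.935) and Higd2a (0.930). Ndufb9 and Cox4i1 encode subunits of the respiratory chain, and Lypd8 was itself a marker of the colonocyte gate. Slc6a8 was most like Cdhr5 (0.947), a brush border cadherin, followed by Ggh (0.920), S100a1 (0.915), Smim24 (0.913) and Serpinb1a (0.912). Gatm was most like Lrpprc (0.916), Ppfia1 (0.908), Taf1 (0.901), Rnf20 (0.892) and Smarca4 (0.886). For Gamt the highest value was 0.678, with Use1. Among the members themselves, Ckmt1 and Slc6a8 were the most alike (r = 0.844), and Ckb and Ckmt1 the least (r = -0.658).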

How the data were processed

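Single-cell RNA of 8 libraries was counted by the authors with Cell Ranger against mm10, and the deposited values are UMI counts per gene and barcode, not normalized. The submitters' processing notes name Cell Ranger 6, while file headers name 6.0.1 for the stromal and 7.1.0 for the epithelial libraries. Whether intronic reads were counted, and on which strand, is not given in the sources used here. A UMI is counted at a transcript's 3′ end, so values are not scaled by length. The members and gene lists were chosen with earlier results of these data known, and gate levels were set after the data were seen.

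Counts were summed over the cells used per library, and over marker-gated classes of at least 20 cells per library. CPM are UMIs per 1000000 UMIs of the sum. Sums were tested with edgeR 4.0.16 (filterByExpr, TMM scaling, quasi-likelihood F test, Benjamini-Hochberg over all genes tested, call at adjusted p under 0.05; R 4.3.3), in 1 fit of the 6 epithelial libraries without covariates, and within each group with library as a block for classes. DESeq2 1.42.0, no filter, other cell filters, thinning to 2000 UMIs per cell, a stricter gate and leaving out each library were tried. Doublets were not called. Instead, leaving out the 6% of cells with the most UMIs was tried. In counts simulated for assembloids against tissue (18932 genes), 26% of 2-fold and 100% of 4-fold changes were recovered with 1 false call. Pathway genes were named where called and among the 2 highest or lowest of their list at a mean log2 CPM of at least 5; Ckm, Ckmt2, Slc16a12, Bnip3 and Slc2a1 were always named, and of the genes this rule names a selection is given. Replicates were 2 per group, so p-values rest on few libraries.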

Additional observations from a re-analysis of the deposited data

Results flagged for a closer look

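2 steps between classes were flagged as not the same in assembloids as in tissue. The step of Ckb from undifferentiated to colonocyte-like cells was 3.08 higher in assembloids on the log2 scale, and it stood out because both tissue libraries went down (-2.90 and -2.15 as log2 ratios of CPM) and both assembloid libraries up (0.79 and 0.78). This difference was not tested, as the tissue level of Ckb was in view when the genes were chosen. The Ckb step to enteroendocrine-like cells, not flagged and not tested, also differed, by a log2 value of -2.22. As log2 ratios of CPM it was 2.48 and 1.69 in tissue and 0.25 and -0.38 in assembloids. The step of Ckmt1 was lower in assembloids by a log2 value of -1.60, with 3.74 in tissue and 2.21 in assembloids, by the interaction test that was added after the data had been seen, and it was called in all alternatives tried. The part of the makeup of the gated classes in these differences was not tested.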

How the results depend on the processing

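Of the comparisons between groups, with the counts of members called between classes, 236 values under the alternatives kept their direction and side of the threshold, or moved by less than 1 SE where no test was made, or little for a count. Of the rest 10 moved further, 2 turned in sign and 2 no longer passed. Between classes 173 values stayed, 14 no longer passed and 1 passed anew. Of the shares of cells with a UMI, 36 moved by at least the SD of a group's libraries and 4 did not. The difference of Gatm between assembloids and tissue did not pass after thinning (-0.73) and ranged from -1.31 to -0.76 when each library was left out. Organoids against tissue, untested, moved with at most 5% mitochondrial UMIs to -3.28 for Slc6a8 and 0.39 for Gatm, and the sign of Gamt turned with at most 20% (0.24). Leaving out each library gave 4.98 to 5.82 for Ckb in assembloids against tissue, untested, and in organoids against tissue 4.21 to 5.05 for Ckb, 0.48 to 1.03 for Gatm and -0.59 to 0.13 for Gamt, which turned to 0.13 without organoid replicate 2. The untested difference in the Ckb step between assembloids and tissue was 3.58 with a stricter gate, 4.02 after thinning and 2.78 to 3.52 over left-out libraries for colonocyte-like cells, and -1.74 after thinning and -2.73 to -1.90 over left-out libraries for enteroendocrine-like cells. The interaction of Slc6a8 in colonocyte-like cells turned to 0.15 after thinning and to 0.12 without tissue replicate 1 (range -0.72 to 0.12). Genes called numbered 9654 for assembloids against tissue (5331 to 10145 over left-out libraries), 9222 for organoids against tissue (5315 to 9939) and 10209 for organoids against assembloids (7683 to 9972, and 6650 after thinning). Thinning reduced member calls between epithelial classes from 21 of 45 tests to 10 of 32 and between stromal classes from 16 of 28 to 10 of 22, while the share of all gene tests called went from 32.9% to 19.8% and from 24.6% to 23.6%. The cause was not tested, except that thinning leaves fewer cells and UMIs. Leaving out a library within a group's class fit left no residual degrees of freedom and was not run. Same-numbered replicates shared only a number: their deviations from group means correlated at 0.0481, -0.0159 and -0.0232. With a replicate block the difference of Ckb between assembloids and tissue was 5.39 and of Gatm -1.02, 9508 genes were called there, and no member's call changed.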

Other observations

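In the epithelial libraries of assembloids, 139 and 161 macrophage-like cells held Gatm at 50.5 and 44.5 CPM, above the 3.56 and 3.62 CPM of the epithelial cells used there. In tissue, 3 and 2 macrophage-like cells were found, with 19 and 9 Ckb UMIs. Fibroblast-like cells in the assembloid epithelial libraries held Slc6a8 at 40.7 and 36.5 CPM against 37.1 and 37.3 CPM in the stromal libraries, and Ckb at 93.9 and 129 CPM against 39.6 and 35.6 CPM. In the assembloid epithelial libraries the epithelial cells used held Gamt at 1.32 and 1.70 CPM, below the level of epithelial cells in the stromal libraries. The Cell Ranger release differs between these libraries, and its part in these differences was not tested.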
